A study of Mus musculus with 9 samples.

Results

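The interferon response genes described here are the 72 rows, of 24421 gene symbols in the expression table, whose names belong to the Stat, Irf, Ifit, Ifitm, Oas, Isg, Mx, Rsad2, Gbp, Irgm and Ifi families. They were chosen by name alone. Levels are in TPM (transcripts per 1000000 transcripts). A gene was tested where it reached 1 TPM in at least 3 of the 9 libraries. Of the 72 genes, 54 were tested and 18 were not: 5 were listed at 0 TPM in every library, and the highest value among the 18 was 1.6 TPM. Of the 54, 3 passed through a single population and so had to differ: Ifit1bl2 and Ifit3b through enterocytes and Irf5 through Lgr5-enriched cells.

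Poly-A RNA was sequenced from 3 populations of colon epithelial cells, 3 libraries each, sorted from adult C57BL/6J mice that the labels give as female. The enterocyte-enriched population, from the crypt top, was Epcam-positive, Cd44-negative and high for Cd66a. The goblet-enriched population, from the crypt bottom, was Epcam-, Cd44- and Kit-positive. The Lgr5-enriched population, also from the crypt bottom, was Epcam- and Cd44-positive and Kit-negative. Cells with Cd3, Cd16/Cd32, Cd31 or Cd45 were gated out. The replicates of a population came from different mice, 3 mice in all for the 9 libraries, per the series text, but the labels do not say that libraries with the same number share a mouse. These are enriched gates and not pure cells, and in bulk RNA fewer cells of a type and less RNA per cell cannot be told apart.

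Interferons are secreted cytokines that act in 3 types. Type I (alpha and beta) and type III (lambda) interferons signal through separate receptors to a complex that holds STAT2 and IRF9 and binds the interferon-stimulated response element (ISRE). Type II (gamma) interferon acts mainly through the gamma-activated site (GAS). In the gut, the type III receptor is known as the main antiviral receptor of epithelial cells. Ifit, Oas, Mx, Isg15 and Rsad2 are classical antiviral effectors of the first route, whereas the guanylate-binding proteins (Gbp) and the immunity-related GTPases (Irgm) are classical targets of interferon gamma.

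The libraries held 11.2 to 26.8 M recovered reads in genes (M, times 1000000). Enterocyte markers summed to 20550 to 47160 TPM in enterocyte-enriched, 1400 to 2602 TPM in goblet-enriched and 2265 to 2515 TPM in Lgr5-enriched libraries. Goblet markers summed to 15570 to 23190, 49320 to 65200 and 1581 to 1776 TPM in enterocyte-, goblet- and Lgr5-enriched libraries, and Lgr5 stem cell markers to 170.6 to 276.1, 654.8 to 732.6 and 1311 to 1532 TPM. Not every goblet marker was highest in the goblet gate. Zg16 stood at 3679 to 7864 TPM in enterocyte- and 119.9 to 565.4 TPM in goblet-enriched libraries, and Tff3 at 1414 to 2688 and 1018 to 1172 TPM. Fcgbp and Clca1 overlapped between these populations, and the rest were higher in goblet-enriched libraries. The enterocyte-enriched libraries thus held goblet marker RNA, whose part in the results below was not tested. The library labelled enterocyte-enriched replicate 1 went against its label of female sex: Xist stood at 0.13 TPM there and at 110.3 to 203.7 TPM in the other 8 libraries, and 4 Y-linked genes summed to 138.6 TPM there and to at most 0.32 TPM elsewhere. As labelled, it did not share a mouse with the other libraries numbered 1, and no goblet- or Lgr5-enriched library had its pattern, which goes against the 3 mice of the series text. Calls and counts that end or move by over 1.5 times without this library are given with and without it. Of 18 leukocyte markers, 4 passed the filter, Cd4 and Nkg7 were at 0 TPM in every library, and Ptprc, the Cd45 gene, was at most 1.2 TPM. The list summed to 21.2 to 265.4 TPM in enterocyte-enriched, 12.9 to 26.1 TPM in goblet-enriched and 14.5 to 26.2 TPM in Lgr5-enriched libraries. In enterocyte-enriched replicates 1 to 3 it summed to 265.4, 154.9 and 21.2 TPM, of which Lyz2 made up 232.4, 132.9 and 12.9 TPM. Tyrobp (11.8, 6.91 and 0.31 TPM), Csf1r (2.90, 1.65 and 0.22 TPM) and Laptm5 (2.60, 1.27 and 0.36 TPM) fell in the same order there. Ptprc, Cd3e, Itgax, Gzma and Coro1a, each at most 0.33 TPM there, did not. The part of this leukocyte marker RNA in the results below was not tested.

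Promoters of the interferon response genes held the ISRE more often than promoters at large. RefSeq windows of 300 bases, 250 before and 50 from the transcript start (GRCm38.p6), were found for 54 of the 72 genes. The ISRE was searched as GAAA, any 2 bases and GAAA again, on both strands, and the GAS as TTCNNNGAA, which reads the same on both strands. The ISRE was in 25 of these 54 genes (46.3%) and in 21 of the 40 with a window that were tested (52.5%), against 3.99% of 27025 genes. The GAS was in 13 of the 54 (24.1%) and 11 of the 40 (27.5%), against 9.55% of all genes. Among the tested genes with a window, the ISRE was in 4 of 4 Gbp, 5 of 6 Ifit, 4 of 6 Oas, 2 of 2 Irgm, 2 of 2 Ifitm and 1 of 1 Rsad2 genes. It was in 1 of 7 Irf, 1 of 5 Stat, 1 of 3 Isg and 0 of 4 Ifi genes. A match is a description of the letters and not a bound site. Irf7 and Oasl1, which were also higher in enterocytes, held no ISRE in their windows. The 5 promoters below were chosen among those with an ISRE. They belong to genes that carry the population differences described next, 4 that were higher in enterocytes and Ifitm3, which was lower. Each runs 5′ to 3′ on the gene's strand over 200 bases before the start and 30 from it, with ISRE matches in capitals.
Ifit1bl1 (chr19:34599398-34599627, minus strand): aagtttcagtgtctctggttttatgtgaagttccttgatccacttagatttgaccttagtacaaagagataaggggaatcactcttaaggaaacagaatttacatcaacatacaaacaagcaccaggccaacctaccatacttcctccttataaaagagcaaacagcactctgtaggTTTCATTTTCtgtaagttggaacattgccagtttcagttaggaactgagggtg
Ifit1 (chr19:34640689-34640918, plus strand): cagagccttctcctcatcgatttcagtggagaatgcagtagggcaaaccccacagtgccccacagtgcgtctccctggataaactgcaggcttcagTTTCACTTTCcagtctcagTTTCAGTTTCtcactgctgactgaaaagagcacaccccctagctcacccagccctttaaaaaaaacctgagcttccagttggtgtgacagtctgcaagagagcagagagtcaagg
Isg15 (chr4:156200789-156201018, minus strand): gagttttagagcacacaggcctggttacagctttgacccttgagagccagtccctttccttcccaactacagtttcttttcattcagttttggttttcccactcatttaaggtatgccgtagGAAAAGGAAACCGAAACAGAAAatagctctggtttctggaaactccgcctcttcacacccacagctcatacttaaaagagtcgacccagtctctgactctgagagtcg
Oas3 (chr5:120777630-120777859, minus strand): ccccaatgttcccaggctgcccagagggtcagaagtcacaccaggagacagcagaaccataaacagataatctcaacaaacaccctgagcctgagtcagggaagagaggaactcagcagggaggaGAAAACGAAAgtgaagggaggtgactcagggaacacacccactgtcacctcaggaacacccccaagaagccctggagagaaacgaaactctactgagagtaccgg
Ifitm3 (chr7:141010715-141010944, minus strand): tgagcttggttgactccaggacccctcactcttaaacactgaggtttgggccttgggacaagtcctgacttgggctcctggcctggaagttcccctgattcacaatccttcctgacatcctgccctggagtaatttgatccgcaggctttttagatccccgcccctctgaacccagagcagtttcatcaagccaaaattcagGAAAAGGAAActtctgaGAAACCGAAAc
Isg15 held 3 overlapping matches that begin at -78, -72 and -66 from the start, and Ifit1 held 2, at -104 and -85, both on the opposite strand. The single matches of Ifit1bl1 and Oas3 begin at -23 and -75. In Ifitm3 both matches lie just inside the transcript, at 3 and 20 (the start base is 1).

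Enterocyte-enriched cells carried more of most antiviral effectors than Lgr5-enriched cells. The levels of the gamma-type GTPases overlapped between the populations, which does not show that they were alike, because they also varied by replicate number. With that number as a block, as described below, 1 Gbp gene was higher and 3 lower in enterocyte- than in Lgr5-enriched cells (beside 15.9% and 45.3% of all genes). Irgm1 was lower with it too, but not with median-of-ratios scaling as well. Between these 2 populations, 21 of the 54 tested genes passed (limma on log2(TPM + 1), Benjamini-Hochberg adjusted p below 0.05 over 12888 genes), a share of 38.9% beside 49.6% of all genes tested. By direction, 15 were higher in enterocytes (27.8%, beside 12.0% of all genes) and 6 were lower (11.1%, beside 37.6%). Without the 3 genes that passed the filter through a single population, 13 were higher and 5 lower of 51. Under median-of-ratios scaling the split was 21 higher and 4 lower (beside 23.5% and 19.7%), and under quantile normalization 18 and 4 (beside 18.8% and 22.4%). The median log2 difference was 0.31 over the interferon genes and -0.35 over all tested genes as deposited, and 0.70 and 0.02 under median-of-ratios scaling, so values below are best read against that shift. The 0.31 was 0.02 without the library labelled enterocyte-enriched replicate 1, 0.67 without enterocyte-enriched replicate 2, 0.05 without Lgr5-enriched replicate 2 and 0.07 with array weights, while the median of all tested genes stayed between -0.36 and -0.30 in these 4 fits. Between enterocyte- and goblet-enriched cells 21 of the 54 passed (beside 44.1% of all genes), 17 higher (beside 15.9%) and 4 lower (beside 28.2%), or 15 and 4 of the 51. Under median-of-ratios scaling the split was 21 and 2 (beside 21.3% and 19.8%). The count was 15 without the library labelled enterocyte-enriched replicate 1 (beside 35.5% of all genes), 14 without enterocyte-enriched replicate 3 (beside 39.0%) and 13 without goblet-enriched replicate 2 (beside 35.9%). Between goblet- and Lgr5-enriched cells 11 passed (beside 34.3%), 4 higher (beside 10.7%) and 7 lower (beside 23.6%), or 4 and 6 of the 51, and the split was 5 and 5 under median-of-ratios scaling (beside 14.3% and 12.0%) and 5 and 6 under quantile normalization (beside 14.6% and 15.1%). These comparisons share libraries, each population entering 2 of them.

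**Figure D1:**
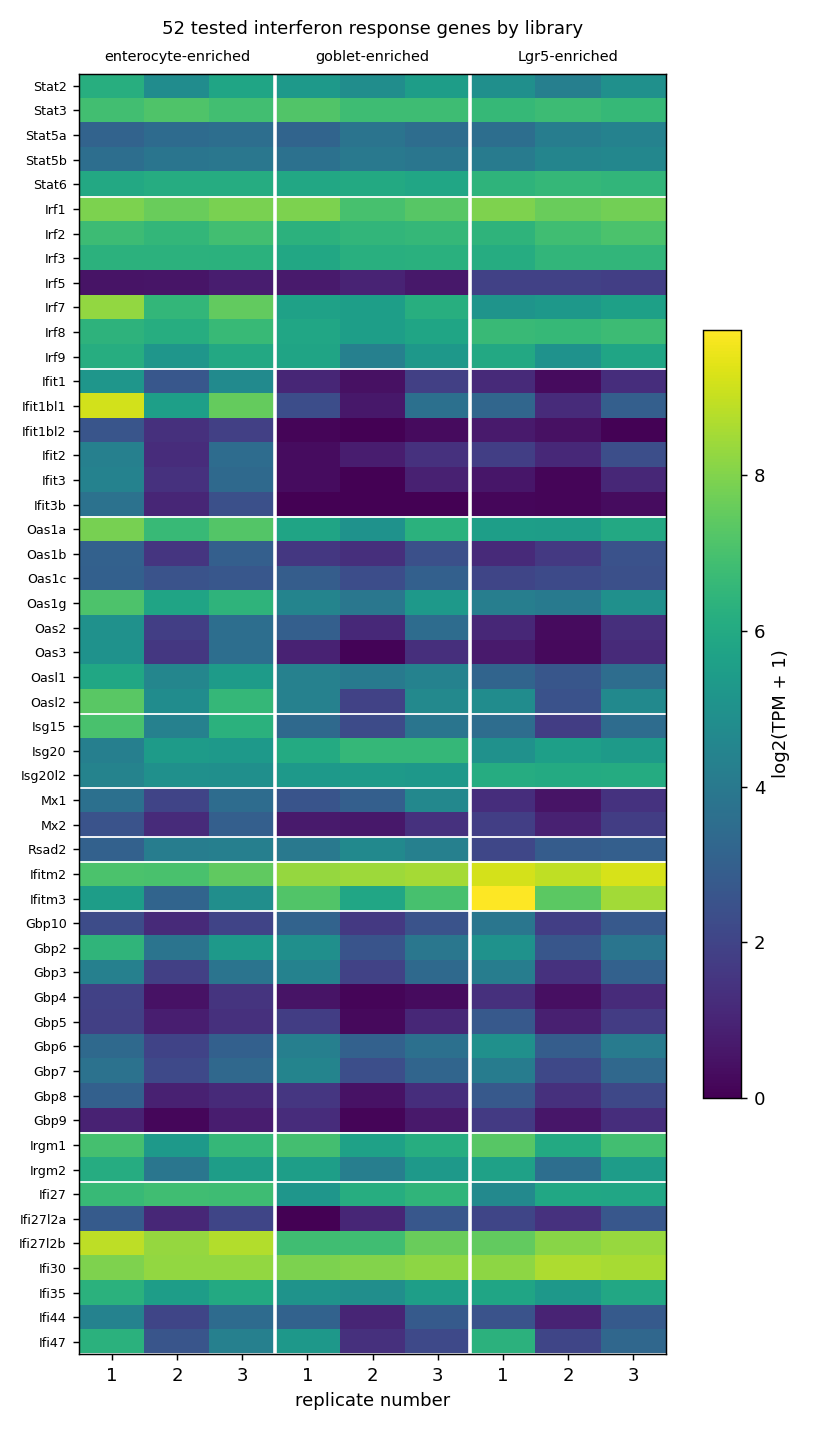
Levels of 52 tested genes, as log2(TPM + 1), in the 9 libraries; rows are grouped by family and columns by population and replicate number. The Ifit, Oas and Isg15 rows are brighter in the 3 enterocyte-enriched columns, Ifitm2 and Ifitm3 are brightest in the Lgr5-enriched columns, and most Gbp rows and the Irgm and Ifi47 rows are darkest in replicate 2 of each population.

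Many of these genes differed by replicate number in the same direction in all 3 populations. Fitted as a term beside population, the number passed for 22 of the 54 genes (40.7%), beside 11.5% of all genes tested. The count was 41 without the library labelled enterocyte-enriched replicate 1 (beside 32.1% of all genes), 14 without enterocyte-enriched replicate 2 (beside 3.21%), 12 without goblet-enriched replicate 2 (beside 2.04%), and 13, 10 and 13 without Lgr5-enriched replicates 1, 2 and 3 (beside 2.05%, 1.27% and 1.86%). In 31 of the 54 genes replicate 2 was the lowest library in all 3 populations, beside 8.87% of all genes, and in 16 of these replicate 1 was also the highest in all 3, beside 3.38% of all genes. What the numbers share, and which of 2 sequencing instruments each library was run on, are not given in the labels used here. A shared mouse goes against the Xist and Y-linked levels for the enterocyte-enriched library numbered 1, and for the others mouse and run cannot be told apart. With the replicate number as a block, which leaves the fold changes as they are and removes this shared variation from their error, 35 genes passed between enterocyte- and Lgr5-enriched cells (beside 61.2% of all genes), 22 higher and 13 lower (beside 15.9% and 45.3%). Between goblet- and Lgr5-enriched cells 24 passed with the block (beside 49.3%), 6 higher and 18 lower (beside 13.9% and 35.4%). Between enterocyte- and goblet-enriched cells 31 passed with it (beside 56.9%), 25 higher and 6 lower (beside 20.6% and 36.3%). With the block and median-of-ratios scaling the splits were 33 higher and 6 lower (beside 30.3% and 25.9%), 9 and 10 (beside 19.6% and 20.3%) and 31 and 5 (beside 27.0% and 27.4%) in that order of comparisons. The genes that passed without the block, 21, 11 and 21, were all among them. Of any difference among the 3 populations, the limma F test passed for 24 of the 54 genes (beside 63.1% of all genes) and for 43 with the block (beside 75.7%).

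**Figure D2:**
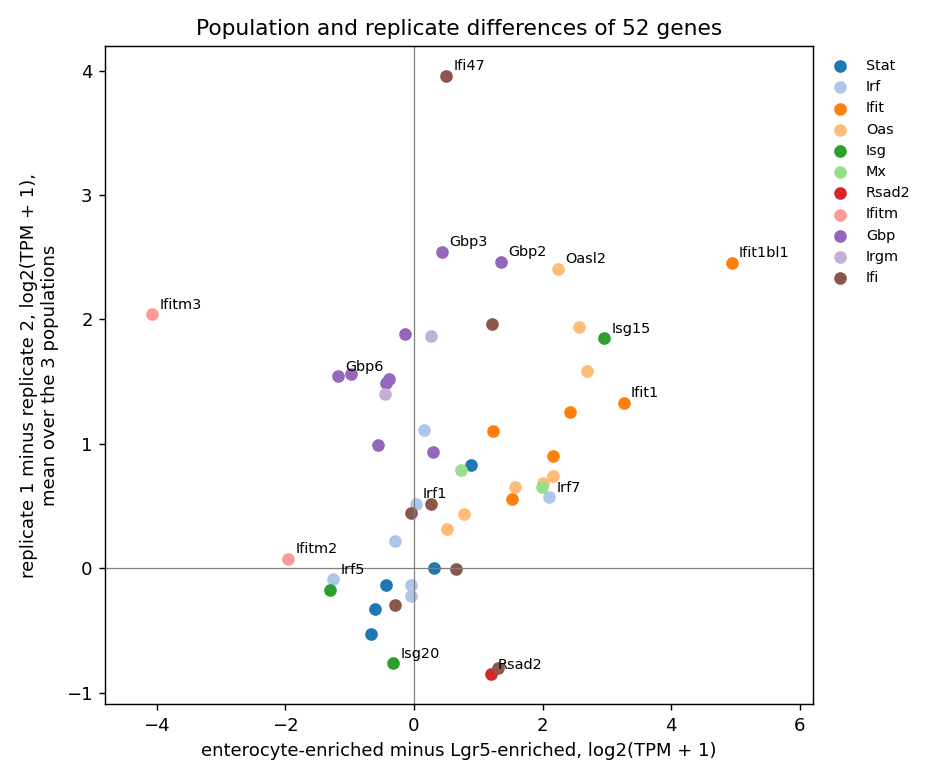
Each point is 1 of 52 tested genes, coloured by family; the horizontal axis is the enterocyte-enriched minus Lgr5-enriched difference and the vertical axis the replicate 1 minus replicate 2 difference averaged over the 3 populations, both in log2(TPM + 1). Ifit, Oas and Isg15 lie to the right, Gbp and Irgm genes near the middle but above 0, Ifitm3 far left and high, and Rsad2 and Isg20 below 0.

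Among the signal transducers, Stat2 differed by replicate number. Stat2, a part of the type I and III complex, stood at 71.5, 26.8 and 55.3 TPM in enterocyte-enriched, 38.6, 27.8 and 44.4 TPM in goblet-enriched and 29.2, 18.3 and 30.0 TPM in Lgr5-enriched libraries. Its levels overlapped between populations. Stat2 passed by replicate number (limma adjusted p = 0.0353), a call that ended without any 1 library other than the one labelled enterocyte-enriched replicate 1 (adjusted p up to 0.111). Between enterocyte- and Lgr5-enriched cells its adjusted p was 0.062, and 0.00327 with the block (log2 difference 0.88).

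Some Stat genes mainly serve other cytokines. Stat6, the transducer of interleukin 4 and 13, stood at 61.1, 68.8 and 69.0 TPM in enterocyte-enriched, 59.3, 63.0 and 56.7 TPM in goblet-enriched and 85.6, 95.0 and 89.6 TPM in Lgr5-enriched libraries. All 6 enterocyte- and goblet-enriched libraries lay below all 3 Lgr5-enriched ones. It was lower in enterocyte-enriched (log2 difference -0.44, SE 0.11, limma adjusted p = 0.00891) and in goblet-enriched cells (-0.59, SE 0.11, adjusted p = 0.0038) than in Lgr5-enriched cells. Under median-of-ratios scaling the enterocyte difference was -0.03 (adjusted p = 0.832). Stat5b was lower in both as well (-0.61 and -0.54, limma adjusted p = 0.0201 and 0.0452), but under median-of-ratios scaling neither passed (adjusted p = 0.263 and 0.141). The enterocyte call for Stat5b ended without the library labelled enterocyte-enriched replicate 1 (adjusted p = 0.0679) and without Lgr5-enriched replicate 2 or 3 (0.0668 and 0.0785), and its goblet call without any 1 of 7 libraries (up to 0.154). For the Stat family the split between enterocyte- and Lgr5-enriched cells was 0 higher and 2 lower as deposited (beside 12.0% and 37.6% of all genes) and 2 higher and 0 lower under median-of-ratios scaling (beside 23.5% and 19.7%). Stat3 and Stat5a passed in no comparison of populations as deposited and not by replicate number (Stat3 adjusted p = 0.0889 and Stat5a 0.0533 between enterocyte- and Lgr5-enriched cells). With the block Stat5a was lower in enterocyte- and in goblet-enriched than in Lgr5-enriched cells (limma adjusted p = 0.00565 and 0.0175), and neither call passed with median-of-ratios scaling as well (0.112 and 0.0852). Stat3 passed under that scaling without the block as higher in enterocyte- and in goblet- than in Lgr5-enriched cells (0.73 and 0.49, limma adjusted p = 0.00448 and 0.0401).

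Of the interferon regulatory factors, Irf7 passed as higher in enterocyte-enriched cells than in each of the other populations. Irf7 (chromosome 7, 141263183 to 141266499), itself interferon-induced and the amplifier of type I interferon transcription, stood at 306, 90.8 and 182 TPM in enterocyte-enriched, 48.7, 45.0 and 72.1 TPM in goblet-enriched and 33.7, 37.1 and 48.2 TPM in Lgr5-enriched libraries. The lowest enterocyte-enriched library lay above the highest of the others. Irf7 was 4.87 times as high in enterocyte- as in Lgr5-enriched cells by means (log2 difference 2.10, SE 0.38, limma adjusted p = 0.002) and 3.49 times as high as in goblet-enriched cells (1.65, SE 0.38, adjusted p = 0.00797), and both calls held under every alternative run (adjusted p up to 0.0152 and 0.048). Irf8 (chromosome 8, 120736358 to 120756694), best known as a factor of myeloid cells and a target of interferon gamma, was lowest in goblet cells: it stood at 82.7, 69.3 and 99.7 TPM in enterocyte-enriched, 56.8, 45.3 and 55.2 TPM in goblet-enriched and 102, 96.6 and 108 TPM in Lgr5-enriched libraries. The goblet-enriched libraries lay below all 6 others. Irf8 was lower in goblet- than in Lgr5-enriched cells (-0.96, SE 0.15, limma adjusted p = 0.00199) and higher in enterocyte- than in goblet-enriched cells (0.66, SE 0.15, adjusted p = 0.00801). Between enterocyte- and Lgr5-enriched cells it passed with the block only (-0.30, adjusted p = 0.0396), and the difference was 0.11 under median-of-ratios scaling.

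Irf5 was near the lower end of detection in all but Lgr5-enriched cells, at 0.43 to 0.73 TPM in enterocyte-enriched, 0.57 to 0.95 TPM in goblet-enriched and 2.52 to 2.80 TPM in Lgr5-enriched libraries. It was called lower in enterocyte-enriched (limma adjusted p = 0.000847) and goblet-enriched cells (0.00284), and it is among the 3 genes that passed the filter through a single population. Irf9, the DNA-binding partner of Stat2, passed in no comparison of populations without the block but by replicate number (limma adjusted p = 0.00966, up to 0.0484 with a library left out). It stood at 69.7, 35.1 and 60.6 TPM in enterocyte-enriched, 53.7, 18.7 and 37.5 TPM in goblet-enriched and 60.3, 32.1 and 54.1 TPM in Lgr5-enriched libraries. With the block it was lower in goblet- than in Lgr5-enriched cells (-0.48, adjusted p = 0.0179, and 0.126 with median-of-ratios scaling as well) and higher in enterocyte- than in goblet-enriched cells (0.64, adjusted p = 0.00419). Irf1, an early target of interferon gamma, was abundant throughout, at 196 to 243 TPM in enterocyte-enriched, 128 to 238 TPM in goblet-enriched and 193 to 249.5 TPM in Lgr5-enriched libraries. It passed in no comparison without the block, and with it was lower in goblet- than in Lgr5-enriched cells (-0.37, limma adjusted p = 0.0479, and 0.351 with median-of-ratios scaling as well) and higher in enterocyte- than in goblet-enriched cells (0.40, adjusted p = 0.0333). Irf2 and Irf3 passed in none of the comparisons as deposited, with or without the block, and not by replicate number. Under median-of-ratios scaling without the block both were higher in enterocyte- than in goblet-enriched cells (0.45 and 0.39, limma adjusted p = 0.0467 and 0.0426), and Irf3 was higher in enterocyte- than in Lgr5-enriched cells (0.37, adjusted p = 0.0493). Irf4 was below the filter.

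The Ifit genes bind foreign RNA caps and ends and block its translation. All 6 lie in 1 cluster on chromosome 19 (34550550 to 34662981, GRCm38.p6). Of these, 5 of 6 were higher in enterocyte- than in Lgr5-enriched cells (beside 12.0% of all genes) and 6 of 6 higher in enterocyte- than in goblet-enriched cells (beside 15.9%). None passed between goblet- and Lgr5-enriched cells (beside 34.3%). Ifit1bl2 and Ifit3b, which passed the filter through enterocytes alone, are among those 5 and 6. The rest were Ifit1, Ifit1bl1 and Ifit3, joined by Ifit2 against goblet-enriched cells. Ifit1bl1 stood at 583, 46.5 and 186 TPM in enterocyte-enriched, 3.99, 0.56 and 11.5 TPM in goblet-enriched and 8.67, 1.30 and 7.02 TPM in Lgr5-enriched libraries. Its lowest enterocyte-enriched value was above every other library outside that population. The log2 difference was 4.94 (SE 1.00, limma adjusted p = 0.00338) from Lgr5- and 5.23 (SE 1.00, adjusted p = 0.00297) from goblet-enriched cells. Leaving out 1 library moved the first difference to 4.06 without the library labelled enterocyte-enriched replicate 1, 5.87 without enterocyte-enriched replicate 2 and 4.30 without Lgr5-enriched replicate 2. It moved the second to 4.36 and 6.17 without those enterocyte-enriched libraries and to 4.45 and 5.96 without goblet-enriched replicates 2 and 3, all still past the threshold. Ifit1 stood at 35.5, 5.38 and 25.4 TPM in enterocyte-enriched, 1.06, 0.36 and 2.64 TPM in goblet-enriched and 1.27, 0.23 and 1.48 TPM in Lgr5-enriched libraries. Its enterocyte-enriched libraries lay above all others, and the log2 difference was 3.26 (SE 0.63, limma adjusted p = 0.00269) from Lgr5- and 3.08 (SE 0.63, adjusted p = 0.00433) from goblet-enriched cells, or 4.02 and 3.84 without enterocyte-enriched replicate 2. Within replicate numbers 1 to 3 the enterocyte- to Lgr5-enriched ratio of Ifit1 was 27.9, 23.0 and 17.2.

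Ifit3 and its near-identical copy Ifit3b followed. Ifit3 stood at 19.7, 1.67 and 9.24 TPM in enterocyte-enriched, 0.26, 0 and 0.87 TPM in goblet-enriched and 0.53, 0.10 and 1.15 TPM in Lgr5-enriched libraries, and Ifit3b at 12.1, 1.08 and 4.33 TPM in enterocyte-enriched and at most 0.26 TPM in Lgr5-enriched libraries, while it was listed at 0 in all goblet-enriched ones. Ifit1bl1 and Ifit1bl2 are likewise close relatives of Ifit1. Reads may be split between such copies, so the level of each is uncertain. The log2 difference of Ifit3 was 2.43 (SE 0.65, limma adjusted p = 0.0125) from Lgr5- and 2.63 (SE 0.65, adjusted p = 0.0101) from goblet-enriched cells. Without the library labelled enterocyte-enriched replicate 1 these were 1.77 and 1.97, and without enterocyte-enriched replicate 2 they were 3.24 and 3.45. Neither passed without the 3 libraries numbered 1 (adjusted p = 0.0822 and 0.0695). Ifit2 was the exception between enterocyte- and Lgr5-enriched cells (log2 difference 1.22, adjusted p = 0.174), with 18.5, 1.36 and 10.4 TPM in enterocyte-enriched and 2.57, 1.20 and 4.22 TPM in Lgr5-enriched libraries, which overlap. Its call against goblet-enriched cells (2.17, adjusted p = 0.0318) ended without the library labelled enterocyte-enriched replicate 1 (1.53, adjusted p = 0.107), enterocyte-enriched replicate 3 (0.0928) or goblet-enriched replicate 1 or 2 (0.0926 and 0.0745), and was 3.05 without enterocyte-enriched replicate 2.

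Most Oas genes encode enzymes that make the 2′-5′ oligoadenylate that activates RNase L. Of the 8 tested, all on chromosome 5, 5 were higher in enterocyte- than in Lgr5-enriched cells (beside 12.0% of all genes) and 5 higher in enterocyte- than in goblet-enriched cells (beside 15.9%). None was lower in either comparison (beside 37.6% and 28.2%), also under median-of-ratios scaling. Without the library labelled enterocyte-enriched replicate 1, 3 were higher in enterocyte- than in goblet-enriched cells (35.5% of all genes passed there in either direction). Oas1a and Oas1g were the 2 whose goblet difference passed with any library left out. With the block 7 of 8 were higher in enterocyte- than in Lgr5-enriched cells (beside 15.9% of all genes). Oas1a was the most abundant, at 229, 98.5 and 149 TPM in enterocyte-enriched, 53.8, 32.0 and 77.9 TPM in goblet-enriched and 44.8, 44.1 and 61.8 TPM in Lgr5-enriched libraries. The enterocyte-enriched libraries lay above all others (log2 difference 1.57, SE 0.36, limma adjusted p = 0.00613 from Lgr5-enriched cells, and 1.53, SE 0.36, adjusted p = 0.00833 from goblet-enriched cells). Both calls ended without the 3 libraries numbered 1 (adjusted p = 0.0613 and 0.0586). Oasl1, an inhibitor of Irf7 translation in mice, stood at 57.3, 21.9 and 42.0 TPM in enterocyte-enriched, 19.3, 15.2 and 19.6 TPM in goblet-enriched and 8.07, 5.24 and 10.4 TPM in Lgr5-enriched libraries. The 3 populations did not overlap in Oasl1. It was higher in enterocyte- than in Lgr5-enriched cells under every alternative run (2.16, SE 0.34, limma adjusted p = 0.00101, up to 0.0102). Its middle place was less firm: the goblet to Lgr5 difference (1.13, adjusted p = 0.0312) did not pass without any 1 of goblet-enriched replicates 1, 2 and 3 (0.0745, 0.0516 and 0.0842) or Lgr5-enriched replicates 1 and 2 (0.0567 and 0.0991). The enterocyte to goblet difference was not firm either (1.03, limma adjusted p = 0.0352, and up to 0.155 over the alternatives run).

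Oas3 was low outside enterocytes. Oas3 stood at 31.8, 2.06 and 10.7 TPM in enterocyte-enriched, 0.93, 0.08 and 1.52 TPM in goblet-enriched and 0.65, 0.17 and 1.28 TPM in Lgr5-enriched libraries. Its enterocyte-enriched libraries lay above all others (log2 difference from Lgr5-enriched cells 2.69, SE 0.74, limma adjusted p = 0.0142; 1.87 without the library labelled enterocyte-enriched replicate 1 and 3.58 without enterocyte-enriched replicate 2). It did not pass in the test on recovered reads (adjusted p = 0.0543) or without the 3 libraries numbered 1 (0.0799). Oas2 stood at 30.7, 2.55 and 10.96 TPM in enterocyte-enriched, 7.03, 1.23 and 10.2 TPM in goblet-enriched and 1.12, 0.21 and 1.52 TPM in Lgr5-enriched libraries. Its goblet- and Lgr5-enriched levels overlapped (adjusted p = 0.14, and 0.0169 with the block). It passed between enterocyte- and Lgr5-enriched cells (2.57, adjusted p = 0.0255) but not without the library labelled enterocyte-enriched replicate 1 (1.81, adjusted p = 0.0866), enterocyte-enriched replicate 3 (0.0633) or Lgr5-enriched replicate 2 (0.0775), and was 3.39 without enterocyte-enriched replicate 2. Oasl2 was among the genes that differed by replicate number. It stood at 162, 27.1 and 92.9 TPM in enterocyte-enriched, 19.1, 2.84 and 24.3 TPM in goblet-enriched and 26.8, 4.67 and 24.4 TPM in Lgr5-enriched libraries. The enterocyte- to Lgr5-enriched ratio within each number was 6.04, 5.80 and 3.80, yet the difference (2.25) had an adjusted p of 0.0647 without the block and 0.000154 with it.

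Isg15 (chromosome 4, 156199424 to 156200818), a ubiquitin-like modifier, stood at 132, 19.4 and 77.7 TPM in enterocyte-enriched, 9.28, 3.76 and 13.3 TPM in goblet-enriched and 10.5, 2.46 and 10.3 TPM in Lgr5-enriched libraries. Each enterocyte-enriched library was above all 6 others, and within numbers 1 to 3 the ratio to the Lgr5-enriched library was 12.5, 7.88 and 7.52. The log2 difference was 2.96 (SE 0.73, limma adjusted p = 0.00889) from Lgr5-enriched cells, or 3.74 without enterocyte-enriched replicate 2. Against goblet-enriched cells it was 2.75 (SE 0.73, adjusted p = 0.0145), or 3.52 without enterocyte-enriched replicate 2. That call ended without the library labelled enterocyte-enriched replicate 1 (2.17, adjusted p = 0.0525) or goblet-enriched replicate 2 (2.30, adjusted p = 0.0518).

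A smaller set was higher in goblet-enriched cells, alone or together with enterocytes. Isg20 (chromosome 7, 78913396 to 78920396), an RNA exonuclease, stood at 18.0, 41.3 and 39.9 TPM in enterocyte-enriched, 64.8, 95.3 and 94.9 TPM in goblet-enriched and 31.1, 46.9 and 41.0 TPM in Lgr5-enriched libraries. Its goblet-enriched libraries lay above all others. It was lower in enterocyte- than in goblet-enriched cells (log2 difference -1.40, SE 0.31, limma adjusted p = 0.00655) and higher in goblet- than in Lgr5-enriched cells (1.08, SE 0.31, adjusted p = 0.0273). The second call ended without goblet-enriched replicate 2 or 3 (0.0817 and 0.0807) or Lgr5-enriched replicate 1 or 3 (0.0766 and 0.0684). Rsad2 (chromosome 12, 26442743 to 26456452), the antiviral enzyme viperin, stood at 7.42, 17.0 and 18.3 TPM in enterocyte-enriched, 15.0, 24.5 and 18.5 TPM in goblet-enriched and 3.26, 6.32 and 6.84 TPM in Lgr5-enriched libraries. Both differentiated populations lay above all Lgr5-enriched libraries. Rsad2 was higher in goblet-enriched (1.67, SE 0.36, limma adjusted p = 0.00775) and in enterocyte-enriched cells (1.19, SE 0.36, adjusted p = 0.0221) than in Lgr5-enriched cells. The enterocyte call ended without enterocyte-enriched replicate 2 or 3 (0.0727 and 0.0772) or Lgr5-enriched replicate 1 (0.0704).

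Mx1, a dynamin-like GTPase that C57BL/6 mice are known to carry as a defective allele, was likewise higher in both. It stood at 11.5, 3.12 and 10.4 TPM in enterocyte-enriched, 4.89, 6.88 and 23.6 TPM in goblet-enriched and 1.42, 0.42 and 1.73 TPM in Lgr5-enriched libraries. The lowest value of either was above the highest Lgr5-enriched value. The log2 difference from Lgr5-enriched cells was 1.99 (SE 0.59, limma adjusted p = 0.0198) in enterocytes and 2.31 (SE 0.59, adjusted p = 0.0159) in goblet cells. The first call ended without the library labelled enterocyte-enriched replicate 1, enterocyte-enriched replicate 3 or Lgr5-enriched replicate 2 (0.0707, 0.0643 and 0.0657), and without all libraries numbered 1 (0.0789). The second ended without Lgr5-enriched replicate 2 (0.0526) and was 1.69 without goblet-enriched replicate 3. That last library also held the most tuft cell marker RNA, 58.1 TPM summed over 8 genes beside 8.46 and 19.1 TPM in goblet-enriched replicates 1 and 2; its part in this result was not tested. Isg20l2, a related exonuclease of ribosomal RNA processing, ran the other way, at 20.5, 29.6 and 28.8 TPM in enterocyte-enriched, 38.0, 40.5 and 37.4 TPM in goblet-enriched and 67.5, 63.8 and 65.4 TPM in Lgr5-enriched libraries. Isg20l2 was lower in enterocyte-enriched (-1.30, SE 0.15, limma adjusted p = 0.000282) and goblet-enriched (-0.75, SE 0.15, adjusted p = 0.00548) than in Lgr5-enriched cells under every alternative run.

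**Figure D3:**
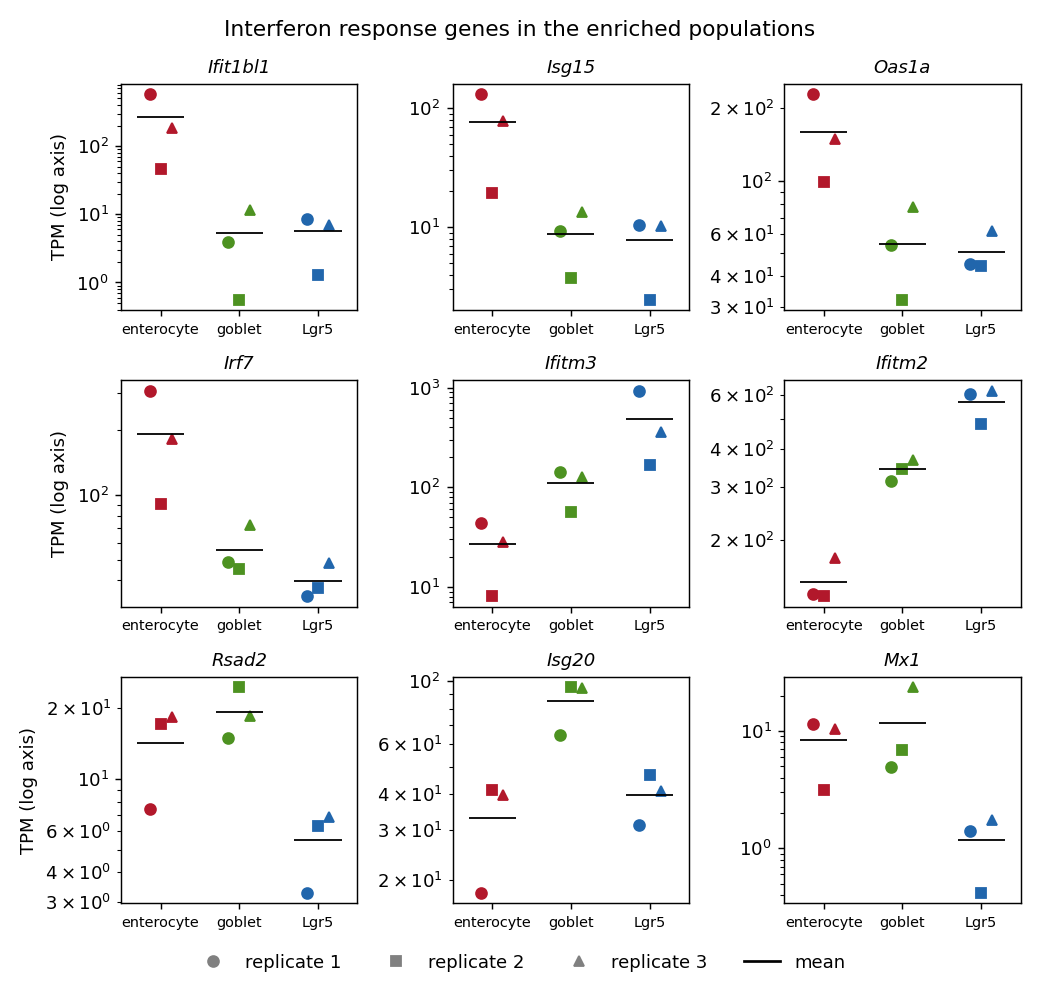
TPM of 9 genes on log axes in the enterocyte-, goblet- and Lgr5-enriched libraries; symbols mark the replicate number and the line is the mean of 3 libraries. Ifit1bl1, Isg15, Oas1a and Irf7 are highest in enterocytes, Ifitm3 and Ifitm2 in Lgr5-enriched cells and Isg20 in goblet cells, while Rsad2 and Mx1 are low in Lgr5-enriched cells. The square of replicate 2 is the lowest in all 3 populations for Ifit1bl1, Isg15, Ifitm3 and Oas1a, for Oas1a only narrowly in Lgr5-enriched cells.

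The Ifitm genes encode membrane proteins that block virus entry, and those tested ran against the other effectors. Ifitm2 and Ifitm3, on chromosome 7 (140954837 to 140959686 and 141009590 to 141010744), were both lower in enterocyte- than in Lgr5-enriched cells, and the other 5 Ifitm genes were below the filter. Ifitm3 stood at 44.3, 8.05 and 28.2 TPM in enterocyte-enriched, 143, 56.7 and 128 TPM in goblet-enriched and 933, 166 and 362 TPM in Lgr5-enriched libraries. The 3 populations did not overlap. Its log2 difference between enterocyte- and Lgr5-enriched cells was -4.07 (SE 0.72, limma adjusted p = 0.00168), or -3.40 without enterocyte-enriched replicate 2, -3.43 without Lgr5-enriched replicate 1 and -4.67 without Lgr5-enriched replicate 2. Between goblet- and Lgr5-enriched cells it was -1.91 (adjusted p = 0.0676, and 0.00079 with the block). Between enterocyte- and goblet-enriched cells it was -2.16 (adjusted p = 0.0358), which did not pass without enterocyte-enriched replicate 2 or 3 (-1.49, adjusted p = 0.112, and 0.0571), goblet-enriched replicate 1 or 3 (0.103 and 0.0975) or Lgr5-enriched replicate 3 (0.0521), or under median-of-ratios scaling (0.0611). Ifitm2 stood at 133, 131 and 175 TPM in enterocyte-enriched, 315, 344 and 368 TPM in goblet-enriched and 606, 481 and 622 TPM in Lgr5-enriched libraries. It took the same order without overlap, and was lower in enterocyte- than in Lgr5-enriched cells (-1.96, SE 0.16, limma adjusted p = 0.000115), in goblet- than in Lgr5-enriched cells (-0.73, SE 0.16, adjusted p = 0.00764) and in enterocyte- than in goblet-enriched cells (-1.23, SE 0.16, adjusted p = 0.000351) under every alternative run. Ifitm3 differed by replicate number as well (adjusted p = 0.0111, and 0.0602 without Lgr5-enriched replicate 2). Ifitm2 did not pass by replicate number (0.211).

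The guanylate-binding proteins, GTPases that attack the vacuoles of intracellular microbes, moved with the replicate number. They lie in clusters on chromosome 3 (Gbp2, Gbp2b, Gbp3, Gbp5 and Gbp7; 142496934 to 142638008) and chromosome 5 (Gbp4, Gbp6, Gbp8, Gbp9, Gbp10 and Gbp11; 105012513 to 105346476). Of the 9 tested, 8 passed by replicate number (beside 11.5% of all genes) and none passed in any comparison of populations without the block. The shares of all genes there were 49.6% for enterocyte- against Lgr5-, 34.3% for goblet- against Lgr5- and 44.1% for enterocyte- against goblet-enriched cells. Gbp2 stood at 85.7, 13.0 and 38.1 TPM in enterocyte-enriched, 29.5, 4.94 and 14.0 TPM in goblet-enriched and 31.7, 5.21 and 13.1 TPM in Lgr5-enriched libraries. Replicate 1 was 6.60, 5.97 and 6.09 times replicate 2 in the enterocyte-, goblet- and Lgr5-enriched populations, and the term passed with any library left out (limma adjusted p = 0.000417, 0.000455 to 0.00696). The populations overlapped in Gbp2 (log2 difference of enterocyte- from Lgr5-enriched cells 1.35, adjusted p = 0.201). Within numbers 1 to 3, however, the enterocyte-enriched library was 2.70, 2.49 and 2.91 times the Lgr5-enriched one, and with the block the difference passed (SE 0.11, adjusted p = 0.000112). Against goblet-enriched cells the ratios were 2.90, 2.63 and 2.73 (1.38, adjusted p = 0.000102 with the block).

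Gbp6 ran the other way between populations, and was named after its values were seen. It stood at 9.45, 2.95 and 7.10 TPM in enterocyte-enriched, 18.0, 7.29 and 11.4 TPM in goblet-enriched and 29.6, 6.50 and 16.0 TPM in Lgr5-enriched libraries. It was lower in enterocyte- than in Lgr5-enriched cells at each number, though the populations overlapped (-1.18, adjusted p = 0.0997, and 0.00116 with the block). With the block, 1 Gbp gene was higher and 3 were lower in enterocyte- than in Lgr5-enriched cells (beside 15.9% and 45.3% of all genes), or 2 and 2 with median-of-ratios scaling as well (beside 30.3% and 25.9%). Gbp7, Gbp3 and Gbp2 kept the replicate call with any library left out. Gbp6 and Gbp10 lost it without Lgr5-enriched replicate 2 (adjusted p = 0.0534 and 0.0793), Gbp10 also without goblet-enriched replicate 1 or 2, and Gbp5, Gbp8 and Gbp9 lost it without any 1 of 5, 7 and 8 libraries, at adjusted p up to 0.145. Paralogs in these clusters share sequence, so single Gbp levels are uncertain.

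Irgm1 and Irgm2, GTPases of the same defence on chromosome 11, did the same. Irgm1 stood at 122, 39.0 and 93.1 TPM in enterocyte-enriched, 119, 49.4 and 70.7 TPM in goblet-enriched and 156, 62.1 and 118 TPM in Lgr5-enriched libraries, with replicate 2 the lowest of each population. Both passed by replicate number (limma adjusted p = 0.0071 and 0.00648) with any library left out, and in no comparison of populations without the block. With the block Irgm1 was lower in enterocyte- and in goblet- than in Lgr5-enriched cells (-0.45 and -0.48, adjusted p = 0.0246 and 0.024), but neither passed with median-of-ratios scaling as well (-0.04 and -0.26, adjusted p = 0.813 and 0.144), and the first difference was 0.03 without enterocyte-enriched replicate 2 and without the block.

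The Ifi genes are a naming class rather than a family, and they divided. Ifi47 (chromosome 11, 49076587 to 49096987), an immunity-related GTPase named here after its values were seen, had the largest replicate 1 to 2 difference of the 54 genes, averaged over populations, at 78.6, 5.04 and 18.8 TPM in enterocyte-enriched, 37.2, 1.60 and 3.56 TPM in goblet-enriched and 80.0, 3.18 and 8.82 TPM in Lgr5-enriched libraries. Replicate 1 was 15.6, 23.2 and 25.2 times replicate 2 in those populations (limma adjusted p = 0.000645 by replicate number, 0.000433 to 0.0116 with a library left out). Ifi44 passed by replicate number too (0.00852), though not without goblet-enriched replicate 2 (0.0502). Ifi27l2b (chromosome 12, 103450898 to 103457223) did not (0.219), and differed between populations. It stood at 468, 316 and 426 TPM in enterocyte-enriched, 113, 112 and 193 TPM in goblet-enriched and 181, 274 and 328 TPM in Lgr5-enriched libraries. Its enterocyte-enriched libraries all lay above the goblet-enriched ones (1.55, SE 0.28, limma adjusted p = 0.00217). It was lower in goblet- than in Lgr5-enriched cells (-0.91, adjusted p = 0.0332), a call that ended under median-of-ratios scaling (0.0936) and without goblet-enriched replicate 1 or 2 (0.0936 and 0.104) or Lgr5-enriched replicate 2 or 3 (0.0881 and 0.121). Ifi27, a neighbour on chromosome 12, was higher in enterocyte- than in Lgr5-enriched cells (1.31, SE 0.38, limma adjusted p = 0.0183), at 101 to 115 TPM in enterocyte-enriched and 24.3 to 58.4 TPM in Lgr5-enriched libraries. Ifi30, a lysosomal thiol reductase of antigen processing, stood at 247 to 309 TPM in enterocyte-enriched, 244 to 289 TPM in goblet-enriched and 289 to 398 TPM in Lgr5-enriched libraries. It passed in no comparison without the block. With the block it was lower in enterocyte-enriched (-0.30, adjusted p = 0.0284) and goblet-enriched (-0.42, adjusted p = 0.0102) than in Lgr5-enriched cells, and the enterocyte difference was 0.11 under median-of-ratios scaling.

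**Figure D4:**
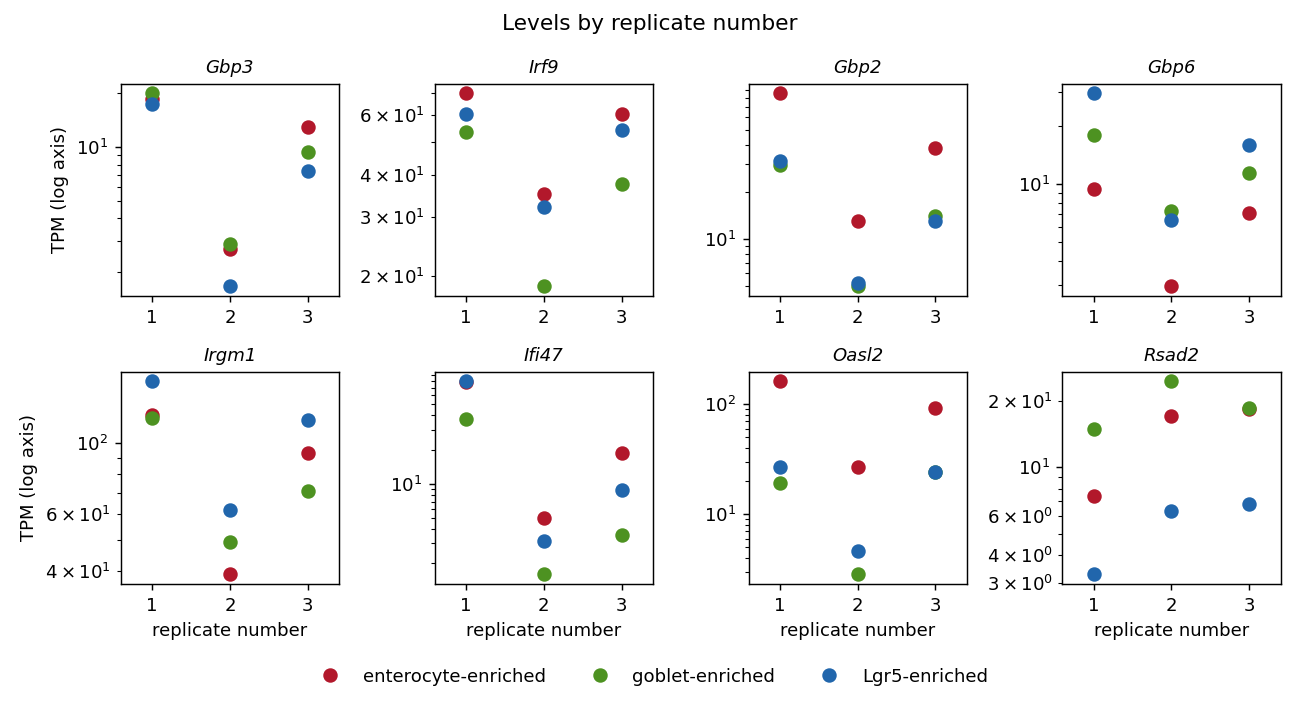
TPM on log axes of 8 genes by replicate number, with 1 point per library coloured by population. Gbp3, Irf9, Gbp2, Gbp6, Irgm1, Ifi47 and Oasl2 are lowest at number 2 within each population, while Rsad2 is lowest at number 1.

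The remaining tested genes were low or passed in few comparisons. Oas1b and Oas1c reached 7.47 and 7.11 TPM and Ifi27l2a reached 6.13 TPM, and none of these passed in a comparison of populations as deposited without the block. Oas1c was higher in enterocyte- than in Lgr5-enriched cells under median-of-ratios scaling (0.86, limma adjusted p = 0.0193) and with the block (0.52, adjusted p = 0.0494). Mx2 stood at 1.32 to 6.90 TPM in enterocyte-enriched and 0.55 to 1.68 TPM in goblet-enriched libraries. Its difference (1.32, adjusted p = 0.0456) did not pass without any 1 of 6 libraries (adjusted p up to 0.149), the one labelled enterocyte-enriched replicate 1 (0.127) among them. Ifi35 was higher in enterocyte- than in goblet-enriched cells (0.76, adjusted p = 0.0385), at 44.5 to 77.2 TPM in enterocyte-enriched and 28.6 to 45.5 TPM in goblet-enriched libraries, but not without the library labelled enterocyte-enriched replicate 1 (0.129), enterocyte-enriched replicate 3 (0.0921) or goblet-enriched replicate 1 or 2 (0.0901 and 0.124). Gbp4 was the 1 Gbp gene of 9 that did not pass by replicate number. Below the filter, Gbp11, Gbp2b, Ifi202b, Ifi203, Ifi204, Ifitm1, Ifitm5, Ifitm6, Irf4, Oas1d, Oas1f, Oas1h and Stat4 had at least 1 value above 0 TPM, and Ifi205, Ifi44l, Ifitm7, Ifitm10 and Oas1e had none.

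The replicate pattern was not shared by every interferon gene. Of the 22 genes that passed, 20 were lowest in replicate 2 of every population, and Isg20 and Rsad2 were lowest in replicate 1. For Isg20, replicate 2 was 2.30, 1.47 and 1.51 times replicate 1 in the enterocyte-, goblet- and Lgr5-enriched populations, and for Rsad2 it was 2.30, 1.64 and 1.94 times. These 2 calls were less firm (limma adjusted p = 0.0353 and 0.0379, up to 0.106 and 0.121 with a library left out), ending without any 1 of 8 and 7 libraries. Of the 22, 9 passed with any library left out, Gbp2, Gbp3, Gbp7, Ifi47, Irf9, Irgm1, Irgm2 and Oasl2 among them. In the pathway lists below, 17 of 27 other interferon-induced genes, 8 of 10 genes of class I antigen processing and 5 of 17 genes of nucleic acid sensing passed by replicate number. So did 1 of 9 receptors and kinases and 1 of 11 negative regulators, which is near the 11.5% of all genes tested. Of the genes that passed, 17, 7, 5, 0 and 1 in that order of lists were lowest in replicate 2 of every population.

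None of the interferon genes looked up was measured at a level that could be tested. Of 13 interferon names, 11 were in the table and 0 passed the filter. Interferon genes outside these names, other Ifna genes among them, were not looked up. Ifnb1, Ifna1, Ifna2, Ifna4, Ifna5, Ifne and Ifng were listed at 0 in all 9 libraries, and the highest value was 0.51 TPM for Ifnk. The genes of type III interferon, Ifnl2 and Ifnl3, reached 0.33 and 0.35 TPM.

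The receptor genes ran in both directions. Of 9 receptor and kinase genes, 4 were higher and 1 lower in enterocyte- than in Lgr5-enriched cells (beside 12.0% and 37.6% of all genes). The 4 were Ifnlr1, Il10rb (0.74, limma adjusted p = 0.00252), Ifngr1 and Ifngr2 (0.40, adjusted p = 0.0436), and the lower 1 was Ifnar2. Between goblet- and Lgr5-enriched cells 0 were higher in goblet cells and 2 lower (beside 10.7% and 23.6%). Between enterocyte- and goblet-enriched cells 3 were higher in enterocytes and 2 lower (beside 15.9% and 28.2%). Ifnlr1, the specific chain of the type III receptor, stood at 18.3, 19.3 and 16.1 TPM in enterocyte-enriched, 6.08, 5.20 and 6.42 TPM in goblet-enriched and 8.72, 11.6 and 7.83 TPM in Lgr5-enriched libraries. The enterocyte-enriched libraries were above all others (0.88, SE 0.18, limma adjusted p = 0.00365 from Lgr5-enriched cells, and 1.45, SE 0.18, adjusted p = 0.000308 from goblet-enriched cells). Ifnar2, a chain of the type I receptor, stood at 1.18, 0.96 and 1.37 TPM in enterocyte-enriched, 5.03, 5.25 and 4.94 TPM in goblet-enriched and 5.55, 5.00 and 5.98 TPM in Lgr5-enriched libraries. It was lower in enterocyte- than in Lgr5-enriched cells (-1.59, SE 0.17, limma adjusted p = 0.000242) and than in goblet-enriched cells (-1.49, SE 0.17, adjusted p = 0.000195). Ifnar1, the other chain, passed in no comparison without the block (adjusted p = 0.245 between enterocyte- and Lgr5-enriched cells). With the block it was lower in goblet- than in Lgr5-enriched cells (-0.46, limma adjusted p = 0.0342), but not with median-of-ratios scaling as well (0.227). Ifngr1, the ligand-binding chain of the gamma receptor, stood at 398, 342 and 279 TPM in enterocyte-enriched, 154, 139 and 111 TPM in goblet-enriched and 168, 216 and 196 TPM in Lgr5-enriched libraries, with enterocytes above all others (0.80, SE 0.18, limma adjusted p = 0.005 from Lgr5-, and 1.33, SE 0.18, adjusted p = 0.000436 from goblet-enriched cells). These enterocyte calls of Ifnlr1, Ifnar2 and Ifngr1 held under every alternative run. The 2 genes lower in goblet- than in Lgr5-enriched cells were Ifnlr1 and Ifngr1 (-0.58 and -0.53, limma adjusted p = 0.0351 and 0.0453). Neither of these passed under median-of-ratios scaling (adjusted p = 0.17 and 0.277). The Ifnlr1 call also ended without any 1 of 6 libraries (up to 0.121) and the Ifngr1 call without any 1 of 5 (up to 0.144).

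Genes of nucleic acid sensing also ran in both directions. The list of 17 holds sensors and also adaptors and kinases, such as Tmem173, Mavs, Myd88 and Tbk1. Of the 17, 3 were higher and 3 lower in enterocyte- than in Lgr5-enriched cells (beside 12.0% and 37.6% of all genes). Between goblet- and Lgr5-enriched cells 0 were higher in goblet cells and 3 lower (beside 10.7% and 23.6%). Between enterocyte- and goblet-enriched cells 5 were higher in enterocytes and 1 lower (beside 15.9% and 28.2%). Mb21d1, which encodes the DNA sensor cGAS, stood at 1.61, 1.16 and 2.36 TPM in enterocyte-enriched, 3.82, 4.03 and 4.78 TPM in goblet-enriched and 10.5, 7.73 and 11.8 TPM in Lgr5-enriched libraries. Tmem173, which encodes STING, the adaptor downstream of cGAS, stood at 11.6, 10.2 and 12.9 TPM in enterocyte-enriched, 20.0, 16.9 and 18.1 TPM in goblet-enriched and 60.0, 32.2 and 34.0 TPM in Lgr5-enriched libraries. The 3 populations did not overlap in either gene. Both were lower in enterocyte- than in Lgr5-enriched cells (Mb21d1 -2.03, SE 0.23, limma adjusted p = 0.000272; Tmem173 -1.73, SE 0.23, adjusted p = 0.000468) and in goblet- than in Lgr5-enriched cells (-1.06 and -1.10, adjusted p = 0.00731 and 0.00652) under every alternative run. Zbp1, a sensor of Z-form nucleic acid, went the opposite way, at 155, 18.3 and 66.4 TPM in enterocyte-enriched, 43.4, 14.5 and 28.6 TPM in goblet-enriched and 12.9, 1.34 and 6.89 TPM in Lgr5-enriched libraries. It was higher in enterocyte- than in Lgr5-enriched cells (3.21, SE 0.83, limma adjusted p = 0.0106), or 2.51 without the library labelled enterocyte-enriched replicate 1, 4.01 without enterocyte-enriched replicate 2 and 2.49 without Lgr5-enriched replicate 2. Nlrp6, an inflammasome and RNA sensor gene of gut epithelium, was low in goblet cells, at 273, 114 and 172 TPM in enterocyte-enriched, 7.63, 19.1 and 32.0 TPM in goblet-enriched and 178, 159.7 and 202 TPM in Lgr5-enriched libraries. Nlrp6 was lower in goblet- than in Lgr5-enriched cells (-3.33, SE 0.46, limma adjusted p = 0.00084).

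**Figure D5:**
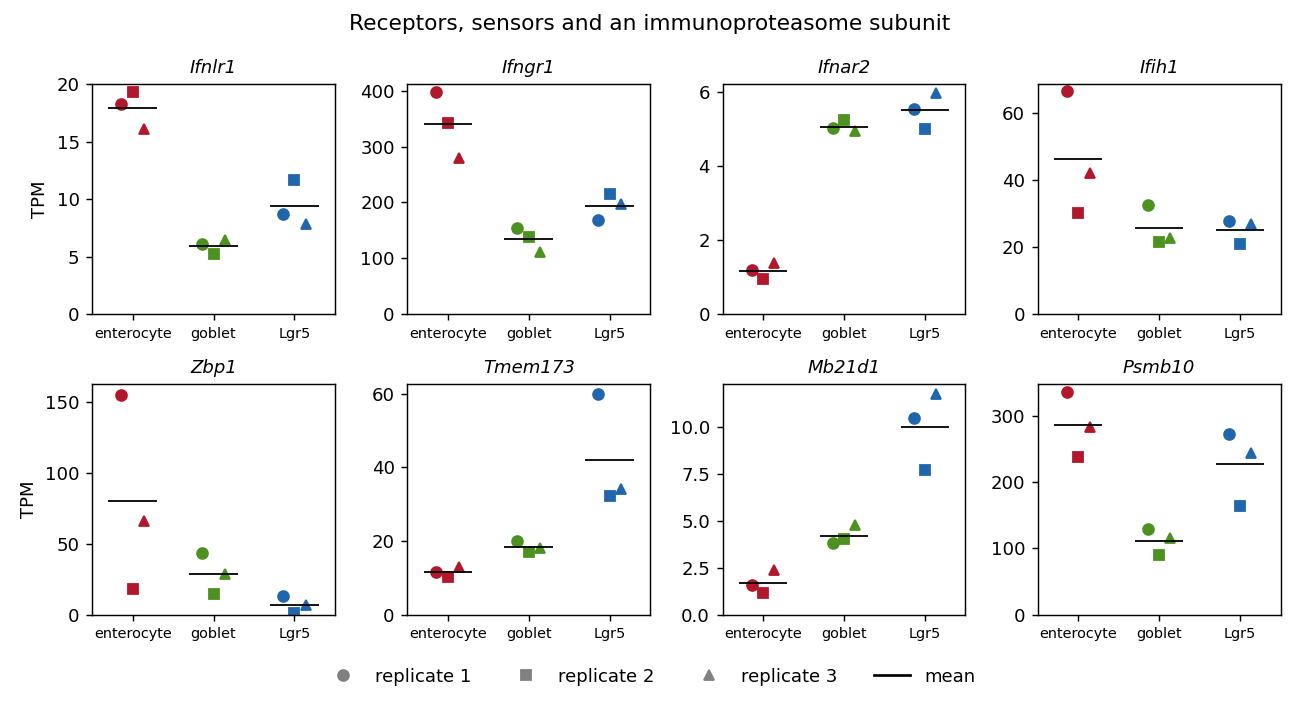
TPM of 8 receptor, sensor and antigen processing genes in the enterocyte-, goblet- and Lgr5-enriched libraries on linear axes from 0; symbols mark the replicate number and the line is the mean of 3 libraries. Ifnlr1 and Ifngr1 are highest and Ifnar2 lowest in enterocytes, Tmem173 and Mb21d1 are highest in Lgr5-enriched cells, and Psmb10 is lowest in goblet cells.

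Other interferon-induced genes, taken from a list that leaves out the families above, ran with the Ifit and Oas genes. Of 27, 11 were higher and 0 lower in enterocyte- than in Lgr5-enriched cells (beside 12.0% and 37.6% of all genes). Between enterocyte- and goblet-enriched cells 13 were higher in enterocytes and 2 lower (beside 15.9% and 28.2%). Between goblet- and Lgr5-enriched cells 2 were higher in goblet cells and 1 lower (beside 10.7% and 23.6%). Sp100, a nuclear body protein, stood at 49.5, 12.1 and 25.3 TPM in enterocyte-enriched, 6.17, 1.93 and 5.56 TPM in goblet-enriched and 6.88, 1.72 and 5.26 TPM in Lgr5-enriched libraries, with enterocytes above all others (2.34, SE 0.57, limma adjusted p = 0.00822 from Lgr5-enriched cells). Ddx60, a helicase, was also higher (2.35, SE 0.54, adjusted p = 0.00617). Tor3a and Ly6e were the 2 genes higher in goblet- than in Lgr5-enriched cells. Tor3a stood at 39.4, 33.1 and 34.7 TPM in enterocyte-enriched, 68.7, 62.1 and 55.3 TPM in goblet-enriched and 27.3, 28.4 and 26.6 TPM in Lgr5-enriched libraries (1.14, SE 0.13, limma adjusted p = 0.000275 between goblet- and Lgr5-enriched cells).

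Among 10 genes of class I antigen processing the mean was lowest in goblet cells for 7. It was also lowest there for 6 of 9 receptors and kinases and 7 of 17 genes of nucleic acid sensing. The same held for 13 of 27 other interferon-induced genes and 4 of 11 negative regulators, and the share over all genes is not given here. Few class I differences between goblet- and Lgr5-enriched cells passed without the block. Of the 10, 0 were higher and 2 lower in goblet- than in Lgr5-enriched cells (20% lower, beside 23.6% of all genes). With the block these were 0 and 7 (beside 13.9% and 35.4%). Between enterocyte- and goblet-enriched cells 5 were higher in enterocytes and 0 lower (beside 15.9% and 28.2%). With the block these were 8 and 1 (beside 20.6% and 36.3%). Between enterocyte- and Lgr5-enriched cells 1 was higher in enterocytes and 1 lower (beside 12.0% and 37.6%). Psmb10, an immunoproteasome subunit, stood at 336, 238 and 283 TPM in enterocyte-enriched, 129, 90.2 and 115 TPM in goblet-enriched and 273, 164 and 244 TPM in Lgr5-enriched libraries. Its goblet-enriched libraries lay below all 6 others (-1.002, SE 0.22, limma adjusted p = 0.00821 from Lgr5-enriched cells; enterocyte minus goblet 1.35, SE 0.22, adjusted p = 0.00132). Of 11 negative regulators, 2 were higher and 3 lower in enterocyte- than in Lgr5-enriched cells (beside 12.0% and 37.6% of all genes). Between goblet- and Lgr5-enriched cells 0 were higher in goblet cells and 2 lower (beside 10.7% and 23.6%). Between enterocyte- and goblet-enriched cells 3 were higher in enterocytes and 0 lower (beside 15.9% and 28.2%). Trim24, a nuclear corepressor, stood at 23.0, 20.2 and 22.2 TPM in enterocyte-enriched, 24.8, 25.5 and 24.7 TPM in goblet-enriched and 42.0, 48.2 and 47.4 TPM in Lgr5-enriched libraries, and was lower in both differentiated populations (-1.04 and -0.85, SE 0.12 each, limma adjusted p = 0.000282 and 0.000964).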

How the data were processed

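RNA was measured in 9 libraries, 3 per sorted population. The authors deposited 1 table of log2 values, which from the values themselves are log2 of TPM from 1 TPM upwards and TPM minus 1 for anything lower. Turned back to TPM, each library sums to 1000000, so a level is corrected for length and relative to the rest of its library. The submitters' processing notes name Cufflinks and mm10 without versions. Aligner, annotation and strand use were not given in the sources used here, which leaves levels of paralogs and antisense partners uncertain. Whole reads were recovered for 18396 of 18396 genes above 0 (100%, tolerance 1e-06 of a read) and are lower bounds.

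The TPM were fitted as log2(TPM + 1) in limma 3.58.1 (R 4.3.3; lmFit, eBayes with trend, 6 residual and 3.21 prior degrees of freedom), with 1 mean per population over all 9 libraries. The filter on low values (1 TPM, 3 libraries) left 12888 genes. Tests were two-sided, Benjamini-Hochberg adjusted over these genes within a comparison, threshold 0.05. Fold changes on this scale understate those of low genes. The p-values reflect how far libraries of a population, each from another mouse per the series text, vary. The fit was tested on simulated data.

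The design had no block. Same-numbered libraries deviated together from their population means in all 9 pairs (r across genes 0.194 to 0.601, and 0.193 to 0.598 without the 72 genes). Pairs with different numbers ran from -0.52 to 0.166. Deviations from a population mean sum to 0, so the 2 kinds of pair are not independent. The number was therefore fitted as a block only as an alternative. This pairing comes from the data and not from the labels. Alternatives covered the pseudocount, filter, scaling, weights, block, samples fitted and each library left out.

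The genes, lists and tests were chosen with earlier results of these data known. Named genes were all tested Stat and Irf genes and, of the other families, the 6 called genes with the largest change in each comparison and the most abundant of each family, 31 in all after leaving out 2 genes that are counted but not reported here; of each pathway list, up to 4 called genes per comparison. Other tested genes, the interferons and Ifnar1 were named after their values were seen. RefSeq (GRCm38.p6) gave positions for 72 genes and no promoter window for 18. Of the per-sample columns, 0 were left unused.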

Additional observations from a re-analysis of the deposited data

How the results depend on the processing

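Counts of genes that passed, of 54, ranged, with 1 library left out at a time, from 18 to 25 for enterocyte- against Lgr5-enriched cells, 8 to 12 for goblet- against Lgr5-enriched cells, 13 to 21 for enterocyte- against goblet-enriched cells, 21 to 28 for any difference and 10 to 41 by replicate number. Over the same fits the shares of all genes were 39.4% to 53.6%, 20.6% to 35.7%, 35.5% to 45.8%, 53.3% to 63.7% and 1.27% to 32.1% in that order. With the replicate block the counts were 35, 24, 31 and 43 in that order of comparisons; with the block and median-of-ratios scaling 39, 19, 36 and 44 (beside 56.2%, 40.0%, 54.4% and 69.7% of all genes); with the block and without the library labelled enterocyte-enriched replicate 1 they were 35, 32, 30 and 46 (beside 60.0%, 59.4%, 55.2% and 77.3%). These last 2 settings and limma-voom on the recovered reads were chosen after seeing the data. The latter gave 20, 8 and 17 genes in the 3 comparisons of populations (beside 45.3%, 30.6% and 40.0% of all genes) and 21 for any difference (beside 58.0%). Array weights gave 24 genes for goblet- against Lgr5-enriched cells (beside 59.1%), and leaving out all libraries numbered 1 gave 13 for enterocyte- against goblet-enriched cells (beside 47.3%). Single genes turned sign as follows: Ifi30 and Irf8 between enterocyte- and Lgr5-enriched cells under median-of-ratios scaling (0.11 each, with and without the block), Ptpn11, a phosphatase of the negative regulators, there too (0.03 in both), Irgm1 there without enterocyte-enriched replicate 2 (0.03, range -0.82 to 0.03 with any library left out), and Ifi47 between goblet- and Lgr5-enriched cells without Lgr5-enriched replicate 1 (range -2.12 to 0.26). The cause was not tested. Depth limits what can be read from genes under about 1 TPM, and 3 libraries per population limit the tests of genes that vary by replicate number.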
